A study of Homo sapiens with 8 samples.

Results

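Genes of serine synthesis and of the folate-linked one-carbon cycle, 10 in all, were followed in A673/TR/shFEZF1 cells. They were chosen by name: PHGDH, PSAT1, PSPH, SHMT1 and MTHFD1 encode cytosolic enzymes, SHMT2, MTHFD2, MTHFD1L and ALDH1L2 encode mitochondrial enzymes, and SLC1A4 encodes a carrier of the cell membrane. The 10 genes are part of 34792 genes whose reads could be summed by symbol, and 10 of 10 passed the filter on low counts that left 15993 genes to test. A673 is an Ewing sarcoma cell line with the EWSR1-FLI1 fusion. The A673/TR cells are 1 clone with a tetracycline repressor, into which a lentiviral shRNA against FEZF1 was placed under doxycycline control. FEZF1 is a transcriptional repressor that takes part in nervous system development. RNA was sequenced from 4 control cultures without doxycycline and 4 cultures with 1 µg/mL doxycycline for 72 h, and each group held the polyclonal population and clones 3, 5 and 6. All 8 cultures carry the repressor and the shRNA construct. There were no cultures of cells without the shRNA under doxycycline here, so effects of the drug and of the shRNA cannot be told apart. Each control library had between 28170989 and 42422421 reads assigned to transcripts, and each doxycycline library between 26719886 and 38104082.

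Serine is made from the glycolytic intermediate 3-phosphoglycerate in a short pathway of cytosolic enzymes. Serine hydroxymethyltransferases then split it into glycine and a one-carbon unit that is carried on tetrahydrofolate. The same chain of folate reactions exists in the cytosol and in mitochondria, and in proliferating cells the mitochondrial arm is known to run mainly from serine to formate, which the cytosolic arm uses for purines and thymidylate. Many of these genes are known targets of ATF4, the transcription factor of amino acid and mitochondrial stress.

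The question put to these cells was which genes change when FEZF1 is silenced, and here it was asked for the serine and one-carbon genes. Of the 10 genes, MTHFD1 alone passed the test over all genes, and it was lower with doxycycline. MTHFD1, the trifunctional cytosolic enzyme that interconverts the folate one-carbon forms, fell by 15.9% (log2 fold change -0.25, standard error 0.053, edgeR's quasi-likelihood test paired by origin, Benjamini-Hochberg adjusted p = 0.0344). PSAT1, PSPH and MTHFD2 had higher values with doxycycline in 4 of 4 origins but did not pass. SHMT2, MTHFD1L, PHGDH and SHMT1 were higher in 2 origins and lower in the other 2. In the same fit 7.63% of all genes were called, 3.91% as lower and 3.73% as higher, so 1 call among 10 genes is near the background.

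The region before the MTHFD1 start is shown because MTHFD1 is the gene that passed the test. MTHFD1 lies on chromosome 14 of GRCh38.p14 from 64388353 to 64460025. The 250 bases before its start (plus strand, RefSeq) are 60.0% G or C, against a median of 58.0% over the same stretch of all promoters in the table. In the line for MTHFD1 no base is in capitals, since the motif searched below is not in these letters.
MTHFD1, chr14:64388103-64388352: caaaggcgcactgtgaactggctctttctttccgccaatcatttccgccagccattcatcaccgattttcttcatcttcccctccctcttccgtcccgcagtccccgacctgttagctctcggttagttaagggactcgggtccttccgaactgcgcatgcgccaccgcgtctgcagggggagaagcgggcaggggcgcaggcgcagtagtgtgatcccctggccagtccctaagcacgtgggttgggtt

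ATF4 binds, with C/EBP partners, to sites of the form TGATGNAA. These letters were searched on both strands of the RefSeq promoters, 250 bases before to 50 bases after a start, with N as any base. They occur in 3.62% of 35116 promoters and in at least 1 promoter of 4.46% of 27305 genes. Promoters were at hand for 7 of the 10 genes, 11 in all: PHGDH, PSAT1, SHMT1, MTHFD1, MTHFD2, MTHFD1L and SLC1A4. The letters occur near a start of 2 of the 7, MTHFD1L and SLC1A4, and 30 bases around each match are shown with the match in capitals. Both genes have several starts, and the match lies in 3 of 4 promoters of MTHFD1L, which overlap each other, and in 1 of 2 of SLC1A4. In SLC1A4 it is on the minus strand, so it reads as the reverse complement. A match describes the letters only.
MTHFD1L, chr6:150866346-150866375, plus strand: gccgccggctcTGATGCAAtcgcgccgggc
SLC1A4, chr2:64989381-64989410, plus strand: gcggctcccgtTTGCATCAtctccagccgg

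Without doxycycline, FEZF1 itself was at 96.4 CPM (library-scaled counts with TMM factors) in the polyclonal population and at 70.5, 107 and 74.4 CPM in clones 3, 5 and 6. With doxycycline it was at 60.6, 43.0, 60.8 and 36.4 CPM in the same order. Each doxycycline library lay below each control library, and the loss was partial (2-sided p = 0.0286 in an exact permutation test, whose smallest possible p with 4 libraries a group this is). The log2 fold change was -0.81 (standard error 0.073, edgeR adjusted p = 0.00594), and without the pairing by origin the adjusted p was 0.290 by edgeR and 0.0152 by DESeq2. FEZF1 lies on chromosome 7 from 122301303 to 122310723 and overlaps its antisense gene FEZF1-AS1, and how strand was set in the quantification is not given in the sources used here. The labelled cell type was checked against its markers, and all 8 Ewing sarcoma markers looked at, CD99, NKX2-2, NR0B1, STEAP1, PRKCB, LIPI, BCL11B and CCND1, were at 49.9 CPM or more in every library. Of these 8 markers, 3 were called between control and doxycycline and 6 between origins. Over all genes tested, the shares called were 7.63% and 39.4%. Of the leukocyte genes, CD3E was at 0 reads in every library and PTPRC did not exceed 0.080 CPM, while CD68 was at 3.99 to 11.1 CPM, highest in clone 3. Of the endothelial genes, PECAM1 was at 0.32 to 0.84 CPM and VWF did not exceed 0.46 CPM. CDH5 could not be read, since none of its reads in the authors' table were recovered by symbol. ALB of hepatocytes did not exceed 0.036 CPM, and EPCAM of epithelium did not exceed 2.92 CPM.

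The 10 genes differed widely in level. On the TPM scale, which is per length of transcript, PHGDH was highest in the controls with 555 ± 82.4 TPM (SD, n = 4). SHMT2 followed with 274 ± 28.1 TPM, PSAT1 with 215 ± 43.8 and MTHFD1 with 189 ± 10.6 TPM. The control values of SHMT2 overlapped those of PSAT1, and those of PSAT1 overlapped those of MTHFD1. Within single libraries SHMT2 was above PSAT1 in 7 of 8, and PSAT1 was above MTHFD1 in 7 of 8. Next came MTHFD2 with 67.3 ± 5.13 and PSPH with 66.3 ± 9.86 TPM, which overlapped each other. MTHFD1L with 46.2 ± 4.6 and SHMT1 with 44.8 ± 4.53 TPM overlapped as well. SLC1A4 was at 29.1 ± 4.74 TPM, below every control value of SHMT1, and ALDH1L2 was nearly silent with 0.174 ± 0.085 TPM. Fewer reads were recovered for a pair of these genes. The sums took in only transcripts matched to a symbol. They held 40.4% of the mean that the authors' table implies for MTHFD2 and 61.4% for ALDH1L2. For the other 8 genes they held between 97.7% and 101%. The level of MTHFD2 is thus understated, and its changes are those of 2 of its transcripts.

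**Figure D1:**
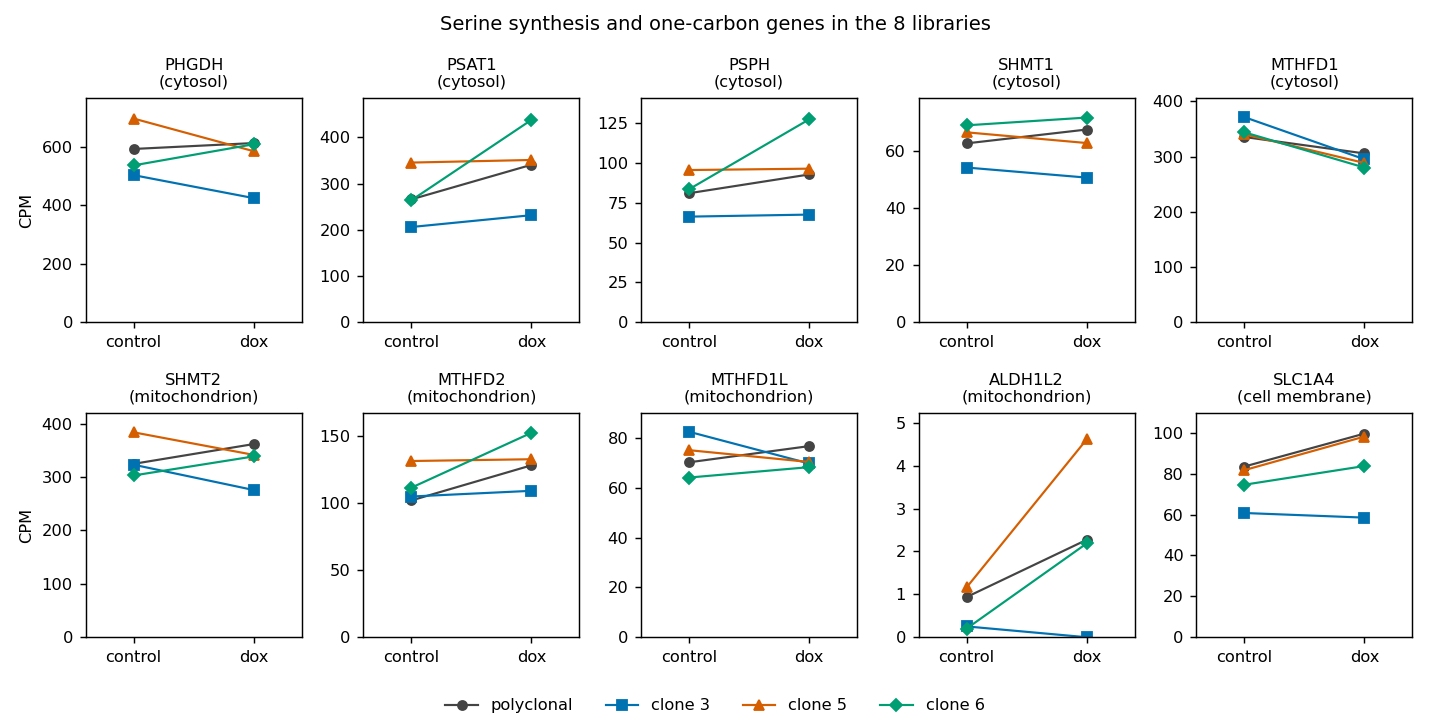
Level of the 10 genes (CPM, linear axes from 0) in the control and doxycycline (dox) library of each origin, joined by a line. MTHFD1 is the gene whose 4 lines all fall and whose groups do not overlap, while PSAT1 rises most in clone 6, from 264 to 438 CPM.

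None of the 3 enzymes of serine synthesis passed the test, and each had its highest change in clone 6 and its next in the polyclonal population. PHGDH, the first and committed enzyme of the pathway, was at 593, 504, 697 and 537 CPM in the control libraries of the polyclonal population and clones 3, 5 and 6, and at 613, 425, 585 and 609 CPM with doxycycline. It was higher in the polyclonal population and clone 6 and lower in clones 3 and 5, and the groups overlapped (log2 fold change -0.07, standard error 0.082, edgeR adjusted p = 0.673). It was -0.15 without clone 6 and -0.0076 without clone 3. PHGDH lies on chromosome 1 from 119711934 to 119744215.

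PSAT1, the aminotransferase of the second step, was at 266, 206, 345 and 264 CPM without and at 341, 232, 351 and 438 CPM with doxycycline. Each origin had a higher value with doxycycline, from 1.02-fold in clone 5 to 1.66-fold in clone 6, but the groups overlapped. Of all genes tested 17.3% were higher in 4 of 4 origins and 15.9% were lower in 4 of 4, so one direction in every origin is common here. The log2 fold change of PSAT1 was 0.32 (standard error 0.106), which did not pass (edgeR adjusted p = 0.113). DESeq2 with the same pairing called it (adjusted p = 0.0311), with 14.9% of its tested genes called. Without the pairing DESeq2 did not (adjusted p = 0.791). PSAT1 lies on chromosome 9 from 78297125 to 78330093.

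PSPH, the phosphatase that releases serine in the last step, was at 80.9, 66.2, 95.4 and 83.3 CPM without and at 92.7, 67.5, 96.3 and 127 CPM with doxycycline. The values of clones 3 and 5 were nearly level, and clone 6 was 1.53-fold higher (log2 fold change over all origins 0.21, standard error 0.100, edgeR adjusted p = 0.243). Without clone 6 the log2 fold change was 0.079 for PSPH and 0.18 for PSAT1 (edgeR adjusted p = 0.586 and 0.250). The clone 6 doxycycline library thus held the highest level of both PSAT1 and PSPH among the 8 libraries. PSPH lies on chromosome 7 from 56011064 to 56051444.

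SLC1A4, a carrier of neutral amino acids that include serine, was at 83.5, 60.8, 81.7 and 74.6 CPM without and at 99.6, 58.5, 98.1 and 83.7 CPM with doxycycline. It was higher in 3 of 4 origins, and clone 3 had the lowest value in both groups (log2 fold change 0.16, standard error 0.069, edgeR adjusted p = 0.203). SLC1A4 lies on chromosome 2 from 64988479 to 65023865.

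Among the cytosolic folate enzymes, MTHFD1 was at 336, 372, 340 and 344 CPM without doxycycline. With doxycycline it was at 306, 295, 289 and 280 CPM in the polyclonal population and clones 3, 5 and 6. The highest doxycycline library was below the lowest control library, with means of 348 ± 16.2 and 292 ± 10.8 CPM (SD, n = 4 each). Groups that do not overlap were found for 4.94% of all genes tested, and for 1 of the 10 genes here. In each origin MTHFD1 was lower, from 0.911-fold in the polyclonal population to 0.795-fold in clone 3. Its transcript NM_005956.4 held 99.4% of the gene's reads, so the fall is that of 1 transcript.

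The call of MTHFD1 depends on the design of the fit. On simulated data the fits paired by origin made more false calls than the threshold allows. Without the pairing, edgeR gave an adjusted p of 0.486 and called 1 gene in all (0.00625%), with 1155 genes, 1 of the 10 among them, at an unadjusted p under 0.05. DESeq2 without the pairing called MTHFD1 (adjusted p = 0.0365) with 1.64% of its tested genes. In the paired fit the adjusted p was 0.0563 without the polyclonal population, 0.0822 without clone 3, 0.122 without clone 5 and 0.109 without clone 6, with log2 fold changes between -0.29 and -0.22.

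SHMT1, the cytosolic serine hydroxymethyltransferase, kept nearly the same mean, 63.2 ± 6.48 CPM without and 63.3 ± 9.10 CPM with doxycycline (SD, n = 4 each). Its 8 values lay between 50.7 and 71.8 CPM (log2 fold change -0.0039, standard error 0.062, edgeR adjusted p = 0.979). SHMT1 lies on chromosome 17 from 18327873 to 18363550.

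In the mitochondrial arm none of the 4 enzymes was called by edgeR or by DESeq2 with all 4 origins, and 1 of them had an unadjusted p under 0.05 in the paired edgeR fit, as had 24.8% of all genes. SHMT2, which makes glycine and the one-carbon unit from serine in mitochondria, was at 325, 323, 384 and 303 CPM without and at 362, 276, 342 and 339 CPM with doxycycline. Like PHGDH it was higher in the polyclonal population and clone 6 and lower in clones 3 and 5 (log2 fold change -0.02, standard error 0.079, edgeR adjusted p = 0.907). SHMT2 lies on chromosome 12 from 57229711 to 57234935.

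MTHFD2, the mitochondrial dehydrogenase and cyclohydrolase, was at 102, 105, 132 and 112 CPM without and at 128, 109, 133 and 153 CPM with doxycycline. The polyclonal population and clone 6 were 1.26-fold and 1.37-fold higher, and clones 3 and 5 were at 1.04-fold and 1.01-fold of their controls (log2 fold change 0.21, standard error 0.082, edgeR adjusted p = 0.158). Without clone 6 the log2 fold change was 0.13 (edgeR adjusted p = 0.412). Of its 2 transcripts with a symbol, the curated NM_006636.4 was at 58.8 ± 9.77 and 61.8 ± 7.19, and the predicted XM_006711924.2 at 42.7 ± 3.25 and 56.6 ± 9.61, without and with doxycycline (CPM of assigned reads, SD, n = 4 each, not tested). MTHFD2 lies on chromosome 2 from 74198615 to 74217565.

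MTHFD1L, the mitochondrial synthetase that releases formate, stayed between 64.0 and 82.4 CPM in the 8 libraries (log2 fold change -0.03, standard error 0.075, edgeR adjusted p = 0.850). It lies on chromosome 6 from 150865702 to 151101887. ALDH1L2, which oxidises the formyl group in mitochondria, was at 37.3, 8.41, 31.6 and 4.71 estimated reads without and at 73.7, 0, 139 and 52.1 reads with doxycycline. It did not exceed 4.61 CPM in any library. It was higher in 3 origins, clone 3 went to 0 reads, and the log2 fold change of 1.52 had a standard error of 0.703 (edgeR adjusted p = 0.231). At these read numbers, and with 61.4% of its reads recovered, no change of this gene was called with all 4 origins. When clone 3 was left out the log2 fold change was 2.04 with an adjusted p of 0.0478. It was 1.23 without clone 5 and 1.01 without clone 6 (edgeR adjusted p = 0.571 and 0.529). ALDH1L2 lies on chromosome 12 from 105019790 to 105084458.

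**Figure D2:**
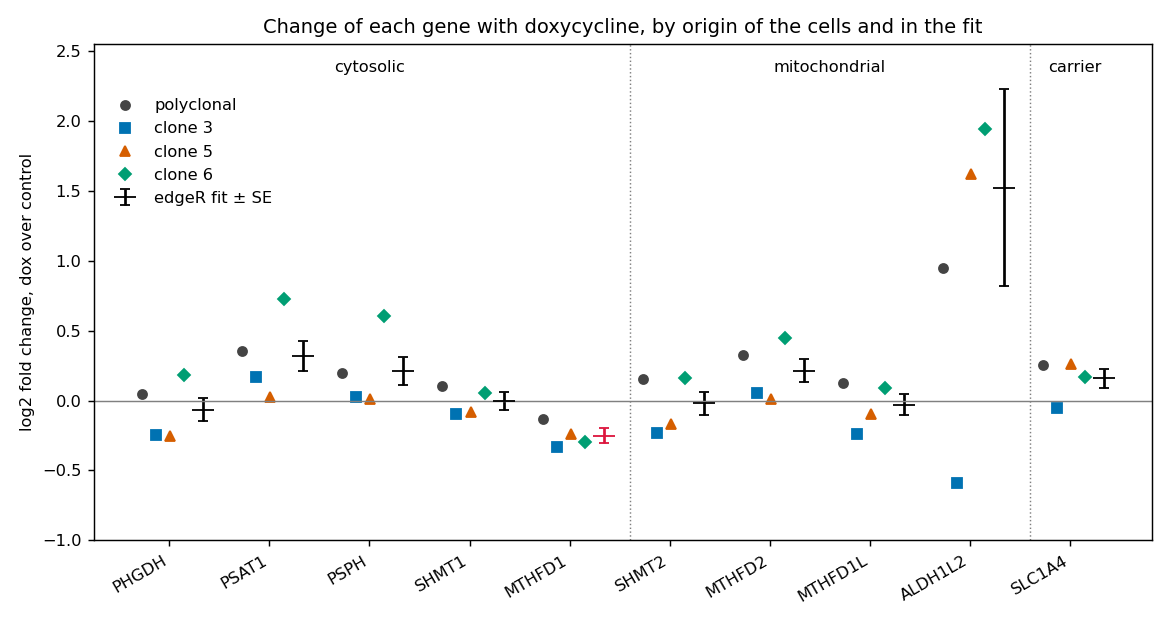
Log2 fold change with doxycycline of each gene in each origin (points, from CPM with 0.5 added) and in the edgeR fit paired by origin (bar with standard error, red where the adjusted p is under 0.05). MTHFD1 has its 4 points below 0, and clone 3 lies lowest or near lowest for most of the other genes.

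The members of either compartment did not share one direction. The median log2 fold change was 0.10 over the 4 mitochondrial enzymes, with a range from -0.03 to 1.52. This median was 0.032 without clone 6, 0.043 without the polyclonal population and 0.16 without clone 3, and -0.029 over the 3 that a filter of 10 counts in every library left. The median was -0.0039 over the 5 cytosolic enzymes, with a range from -0.25 to 0.32. Over all genes tested the median was 0.0042. By origin the 10 genes went different ways. With doxycycline 9 of them were higher in the polyclonal population and 9 in clone 6, against 3 in clone 3 and 5 in clone 5. The median log2 change of the 10 genes was 0.18 in the polyclonal population, -0.16 in clone 3, -0.035 in clone 5 and 0.17 in clone 6, while the median over all genes was between -0.0022 and 0.0086 in the 4 origins. With 1 culture of each kind per origin this difference between origins could not be tested.

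Mitochondrial and cytosolic enzymes were compared directly as the log2 ratio of each mitochondrial gene to its cytosolic paralogue, from CPM with 0.5 added. In all 4 ratios were compared with exact permutation tests over the 8 libraries, with p-values adjusted over the 4 by Benjamini-Hochberg. The smallest p of 0.0286 becomes 0.114 after this adjustment where 1 ratio reaches it, so a single ratio could not pass at this number of libraries. The ratio of MTHFD1L to MTHFD1 was -2.25, -2.17, -2.17 and -2.42 in the controls of the polyclonal population and clones 3, 5 and 6, and -1.99, -2.08, -2.03 and -2.03 with doxycycline. Each doxycycline library was above each control library (mean difference 0.22, exact 2-sided p = 0.0286, adjusted p = 0.114). In the fit MTHFD1L had a log2 fold change of -0.03 and MTHFD1 one of -0.25, so the change of the ratio is not independent of the fall of MTHFD1.

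The ratio of MTHFD2 to MTHFD1 was higher with doxycycline in 4 of 4 origins with an adjusted p above 0.05. It was -1.71, -1.82, -1.37 and -1.62 without and -1.25, -1.43, -1.12 and -0.87 with doxycycline, and the groups overlapped through clone 5 (mean difference 0.46, exact 2-sided p = 0.0571, adjusted p = 0.114). The sums held 40.4% of the authors' mean for MTHFD2 and 101% for MTHFD1, so the level of this ratio is understated. For SHMT2 over SHMT1 the means were 2.39 ± 0.20 and 2.38 ± 0.098 (SD, n = 4 each), higher in 2 of 4 origins (mean difference -0.016, exact 2-sided p = 0.886, adjusted p = 0.886). For ALDH1L2 over ALDH1L1, its cytosolic paralogue that lies between 3.09 and 25.5 CPM, the means were -2.97 ± 0.68 and -2.36 ± 0.93, higher in 3 of 4 origins (mean difference 0.61, exact 2-sided p = 0.343, adjusted p = 0.457). That difference moved to 0.26 with 2 CPM added in place of 0.5, to 0.39 on the TPM scale, to 0.33 without clone 5, to 0.34 without clone 6 and to 1.02 without clone 3. The level of the ALDH1L2 to ALDH1L1 ratio is understated too, with 61.4% of the authors' mean held for ALDH1L2 and 102% for ALDH1L1. These p-values treat the libraries as unpaired, and with signs exchanged within 4 origins no p can go below 0.125.

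**Figure D3:**
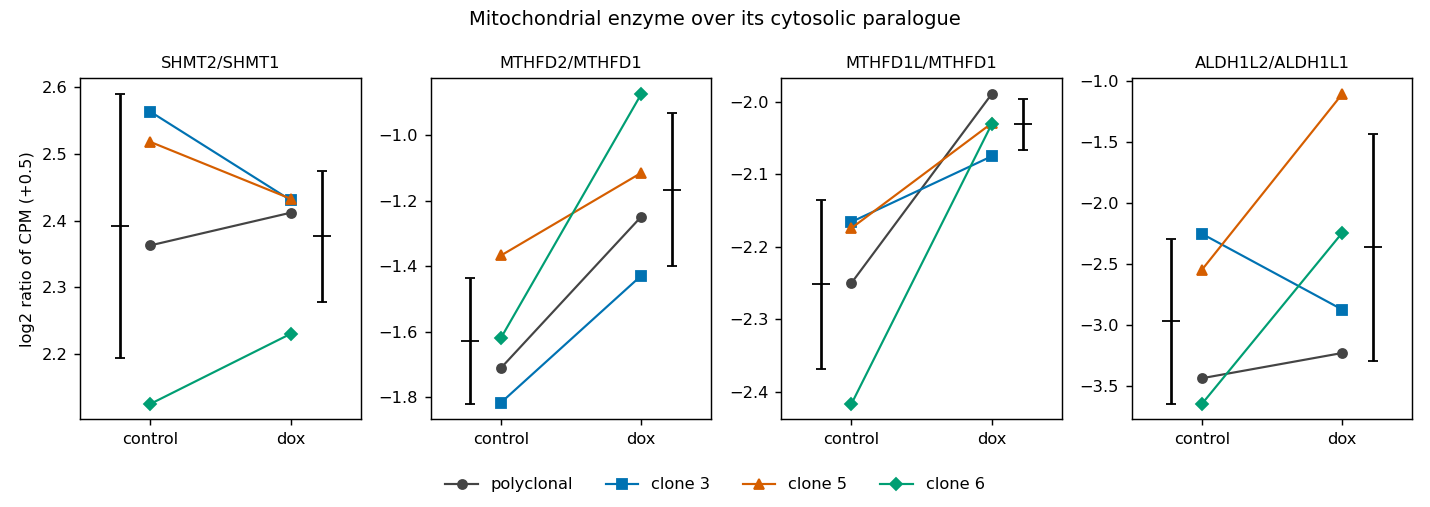
Log2 ratio of a mitochondrial enzyme to its cytosolic paralogue (CPM with 0.5 added) in the control and doxycycline library of each origin, with the mean ± SD of each group in black. The vertical axes differ between panels and do not start at 0. The MTHFD1L/MTHFD1 groups do not overlap, and the SHMT2/SHMT1 means are 2.39 and 2.38.

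Several of these genes differed in level between origins, as did many others. In a test of the 3 differences between origins, with doxycycline as a covariate, 39.4% of all genes were called, and 4 of the 10 genes: PSAT1 (adjusted p = 0.0291), PSPH (0.0361), SHMT1 (0.0290) and SLC1A4 (0.00867), all by edgeR's quasi-likelihood test. This share of the 10 genes is near that of all genes. Clone 3 had the lowest mean of its 2 libraries for 8 of the 10 genes. How often clone 3 was lowest over all genes was not counted, so this is a description only. For SLC1A4 that mean was 59.6 CPM in clone 3, against 79.2 in clone 6, 89.9 in clone 5 and 91.5 in the polyclonal population. For PSAT1 it was 219 CPM in clone 3 and 303, 348 and 351 CPM in the polyclonal population, clone 5 and clone 6. Without clone 3, where 33.2% of all genes were called between origins by edgeR, none of the 10 genes was (lowest adjusted p = 0.098, for ALDH1L2, which was the 1 gene of the 10 at an unadjusted p under 0.05).

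Clone 3 also differed in its sum of fibroblast markers, but it was not the only origin that differed from the rest. Genes called between origins numbered 5300 without clone 3 and 5266 without the polyclonal population. They numbered 4080 without clone 5 and 2970 without clone 6, against 6300 with all. The fibroblast markers COL1A1, COL3A1, PDGFRA and DCN summed to 2542 and 2470 CPM in the control and doxycycline library of clone 3, and to between 342 and 917 CPM in the other 6. The most abundant was COL1A1, and 3 of the 4 differed between origins. PDGFRA stayed at 4.91 CPM or less and DCN at 17.2 CPM or less. The sum is thus nearly all COL1A1 and COL3A1, and it does not show whether PDGFRA and DCN were higher in clone 3. The part of these genes in the lower serine and one-carbon levels of clone 3 was not tested. None of the 4 was called between control and doxycycline.

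Related genes were taken from lists and read beside the same background. Among 14 tested other folate enzymes and carriers, 1 fell and none rose, near the 7.63% called over all genes, and 12 of 14 had a negative log2 fold change, with a median of -0.17, where 7881 of all 15993 genes were negative. SLC46A1, the proton-coupled folate carrier, was at 29.0, 34, 28.3 and 29.0 CPM without and at 26.2, 22.7, 18.4 and 20.5 CPM with doxycycline, without overlap (log2 fold change -0.46, edgeR adjusted p = 0.0316). No gene of this list, SLC46A1 included, was called without clone 3, without clone 5, without clone 6, or by DESeq2 without the pairing. TYMS, the thymidylate synthase that consumes methylene-tetrahydrofolate, had a log2 fold change of -0.20 and was lower in 4 of 4 origins but did not pass (edgeR adjusted p = 0.0739). GGH, the hydrolase that trims folate polyglutamates, had a log2 fold change of -0.06 (edgeR adjusted p = 0.57), and ALDH1L1 one of 0.41 (edgeR adjusted p = 0.123).

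Purine synthesis and the methionine cycle each had 1 gene called, near the 7.63% called over all genes. PFAS, which catalyses a step of the purine ring's assembly, fell by 0.22 on the log2 scale (edgeR adjusted p = 0.0365), as 1 of 13 purine genes. PAICS and GMPS, the most abundant of that list, had log2 fold changes of -0.0022 and 0.087 (edgeR adjusted p = 0.985 and 0.297). MAT2B, the regulatory subunit of methionine adenosyltransferase, fell by 0.26 (edgeR adjusted p = 0.0413), as 1 of 8 tested genes of the methionine cycle. Its catalytic partner MAT2A had a value of -0.24 (adjusted p = 0.180) and AHCY one of 0.028 (adjusted p = 0.853). When any 1 origin was left out, no gene of either list was called, PFAS and MAT2B included.

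Around serine and glycine, 1 of 14 other enzymes and 1 of 11 other carriers rose, where 3.73% of all genes did, and single calls in lists of this size are near the background. CTH, the last enzyme of the transsulfuration pathway from serine and homocysteine to cysteine, was at 23.6, 11.9, 24.5 and 20.2 CPM without and at 36.3, 13.8, 28.7 and 32 CPM with doxycycline, higher in each origin (log2 fold change 0.44, edgeR adjusted p = 0.0438). CTH sums held 72.3% of the authors' mean. No enzyme of this list, CTH included, was called with DESeq2 size factors or when any 1 origin was left out. CBS, the enzyme before it, had a log2 fold change of 0.025 and DLD, a subunit of the glycine cleavage system, one of -0.18 (edgeR adjusted p = 0.909 and 0.082). SLC6A9, the glycine transporter GLYT1, was at 63.7, 53.7, 66.0 and 54.0 CPM without and at 80.6, 63.9, 86.6 and 73.4 CPM with doxycycline, higher in each origin (log2 fold change 0.36, edgeR adjusted p = 0.0171). No carrier of the list, SLC6A9 included, was called without clone 5, without clone 6, or by DESeq2 without the pairing. SLC38A2 and SLC1A5, the most abundant carriers of the list, had log2 fold changes of 0.041 and 0.22 (edgeR adjusted p = 0.816 and 0.0642).

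Of 25 tested genes in the list of ATF4 and its other targets, 3 rose and 2 fell, where 3.73% and 3.91% of all genes did, and 20 had a positive log2 fold change, with a median of 0.15, where 8112 of all 15993 genes were positive. By origin the median log2 change of the list was 0.21 in the polyclonal population, -0.0075 in clone 3, 0.091 in clone 5 and 0.30 in clone 6, which was not tested. DDIT4, an inhibitor of mTORC1 signalling, was at 17.1, 13.8, 18.1 and 17.0 CPM without and at 31.1, 25.7, 43.8 and 28.9 CPM with doxycycline (log2 fold change 0.95, edgeR adjusted p = 0.00611). STC2, a secreted glycoprotein, went from 28.1 ± 3.54 to 43.4 ± 4.44 CPM (SD, n = 4 each, log2 fold change 0.63, edgeR adjusted p = 0.00635), again without overlap of the groups. CHAC1, which degrades glutathione, rose by 0.65 on the log2 scale (edgeR adjusted p = 0.0484). GDF15, a secreted stress cytokine, fell from 2.31 ± 0.30 to 0.98 ± 0.18 CPM (SD, n = 4 each, log2 fold change -1.24, edgeR adjusted p = 0.0189), and SLC7A1, a carrier of basic amino acids, fell by 0.29 (edgeR adjusted p = 0.0433). The mRNA of ATF4 itself had a log2 fold change of 0.015 (edgeR adjusted p = 0.931) and was higher in 2 of 4 origins. DDIT4, STC2 and GDF15 are also known targets of other stress and hormone signals.

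The cytosolic aminoacyl-tRNA synthetases, many of which are ATF4 targets, had 0 of 20 genes called by edgeR, 4 at an unadjusted p under 0.05, and 3 called by DESeq2 with the pairing. Over all genes these last shares are 24.8% and 14.9%, so both counts are near the background. The most abundant, IARS1 and LARS1, had log2 fold changes of 0.14 and 0.097 (edgeR adjusted p = 0.14 and 0.282). In the proliferation list 8 of 20 genes fell and none rose, where 3.91% of all genes fell, with a median of -0.17. Calls in this list numbered 4 without the polyclonal population, 2 without clone 3 and 0 without clone 5 or without clone 6. By DESeq2 without the pairing there was 1. MCM6 and MCM5, subunits of the replicative helicase, fell by 0.39 and 0.31 on the log2 scale (edgeR adjusted p = 0.0129 and 0.0229), and PCNA, the sliding clamp of DNA polymerase, fell by 0.33 (adjusted p = 0.0263). These proliferation genes moved in the same direction as MTHFD1, and their part in that fall was not tested. Without the pairing edgeR called none of the genes in the 8 lists, where the lowest adjusted p was 0.150, and DESeq2 called 4.

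Genes outside these lists were ranked by how closely they followed the mean profile of the 10 genes over the 8 libraries (Pearson's r of centred log2 CPM, a description over libraries that share origin and treatment). The closest were KHK (r = 0.970), CMTM8 (0.970), EIF4EBP1 (0.966), FH (0.961) and POU2AF3 (0.961). EIF4EBP1, the translational repressor 4E-BP1, was at 145, 138, 177 and 131 CPM without and at 194, 115, 190 and 205 CPM with doxycycline. Its values were lowest in the clone 3 doxycycline library and highest in that of clone 6. FH, the fumarase of the tricarboxylic acid cycle, lay between 69.1 and 105 CPM, and CMTM8 and POU2AF3 did not exceed 2.19 CPM. ALDH1L2 weighed most in that profile, with a standard deviation of 2.03 in log2 CPM over the libraries against 0.11 to 0.36 for the other 9 genes. With ALDH1L2 left out, a choice made after seeing the data, the closest were YIPF2 (r = 0.986), KHK (0.982), MACROD1 (0.975), MLYCD (0.961) and PIK3CD-AS2 (0.956), and EIF4EBP1 and FH had r of 0.947 and 0.948. None of the first 5 was called between control and doxycycline by edgeR (lowest adjusted p = 0.246).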

How the data were processed

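RNA-seq libraries of A673/TR/shFEZF1 cells (4 controls, 4 with doxycycline) were analysed from the processed files. The authors quantified transcripts with Salmon on GRCh38 and deposited estimated counts and TPM for 158867 transcripts per library. The deposited table of DESeq2 results holds a signal, the mean of normalized counts, which served only to measure how many reads were recovered; its fold changes and p-values were not used. The clone 5 control file alone has another row order and number format. Transcripts were matched to symbols (72.6%; 89.9% to 91.1% of reads), summed per gene and rounded. Low genes were removed by filterByExpr, TMM factors were computed, and edgeR 4.0.16 (R 4.3.3) fitted treatment with origin as a block (Benjamini-Hochberg threshold 0.05); DESeq2 1.42.0 was an alternative. Cultures pair by origin because both come from the same cells; their deviations from the group means correlated at 0.406 to 0.590 within an origin and -0.395 to 0.179 between origins. Whether replicate cultures were made for each origin is not stated, so p-values measure the spread between these libraries. The fits were tested on simulated data, where those with the block made more false calls than the threshold allows and edgeR and DESeq2 without it did not. The genes, lists, tests and motif were chosen with earlier results of these data known. Genes named from a list are up to 3 called in each direction with the largest change, or, with fewer than 2 called, the 2 most abundant; ATF4, TYMS and ALDH1L1 were always named. A gene of the folate list is not reported here, and the counts leave it out. Python 3.11.15 was used.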

Additional observations from a re-analysis of the deposited data

Results flagged for a closer look

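Values of 10 serine and one-carbon genes, FEZF1, 4 paralogue ratios and the library totals were searched for a library far from the other 3 of its group, 32 groups in all. Chance flags about 1 in 20 such groups, which is 1.6 of 32, and 2 were flagged. PHGDH in the doxycycline group was at 425 CPM in clone 3, far below 585, 609 and 613 CPM in the other 3. The log2 ratio of SHMT2 to SHMT1 in the doxycycline group was 2.23 in clone 6, below 2.41 to 2.43 in the other 3, and clone 6 also had the lowest ratio among the controls (2.13).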

How the results depend on the processing

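No alternative turned the direction of MTHFD1, MTHFD2, PSAT1, PSPH, SLC1A4, PHGDH, ALDH1L2 or FEZF1, but the number of calls moved widely. Of all genes, 1221 were called with the replicate block by origin, 1 without it, 1920 by DESeq2 with the block, 232 by DESeq2 without it, and 175 to 699 when 1 origin was left out. Of the 10 serine and one-carbon genes, 1 was called with the replicate block, 0 without it, 2 by DESeq2 with it and 0 to 1 when 1 origin was left out. Of the genes in the 8 related lists, 18 were called with the block, 0 without it, 30 by DESeq2 with it, 4 by DESeq2 without it, and 2 to 10 when 1 origin was left out. FEZF1 had a log2 fold change of -0.80 without the block, which then did not pass by edgeR (adjusted p = 0.290) but did by DESeq2 (0.0152). Values near 0 changed sign. The median of the mitochondrial enzymes became -0.029 with the filter of 10 counts in every library, which left out ALDH1L2. SHMT1 had a log2 fold change of 0.0016 without the block, 0.011 with an offset for effective length and -0.046 to 0.027 when 1 origin was left out. MTHFD1L had 0.022 with the offset and -0.088 to 0.041 when 1 origin was left out, and SHMT2 -0.084 to 0.049. The difference of the SHMT2 to SHMT1 log2 ratio was -0.056 to 0.023. Between origins, 2970 to 5300 genes (5300 without clone 3) and 0 to 5 of the 10 genes were called when 1 origin was left out, against 6300 and 4 with all. Without a pseudocount the ALDH1L2 to ALDH1L1 ratio could not be had, since clone 3 was at 0 reads. The cause of these shifts was not tested. ALDH1L2 had at most 139 reads in a library.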
